A study of Mus musculus with 8 samples.

Results

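In the hippocampus of 8 mice, 794 of the 11304 listed open regions had strong peaks but lacked one in 1 or 2 of the libraries. They were chosen by 2 deposited values, a mean z score of at least 80 and a number of carriers of 6 or 7, where the z score is a height the authors gave each peak on a scale they do not state. A recount showed what both values hold: in all 11304 regions the number of carriers equalled the number of libraries whose peak list overlaps the region at a z of 30 or more, and the mean z equalled the mean over all such peaks to within 0.0001. Libraries below z 30 therefore do not enter the mean. Of the 794 regions, 350 had 6 carriers and 444 had 7. These values chose the regions and are given as a description, with no test.

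All animals were adult male C57BL/6J mice of 2 months, housed singly and handled on 3 days. The control group of 4 mice was not trained. The conditioned group of 4 mice was placed in a chamber, received 1 foot shock (2 s, 1.5 mA) and was taken 30 min later, at the same time of day as the controls. Each library came from the whole hippocampus of 1 mouse, in which neurons and glia are mixed, so a change in a region cannot be told apart from a change in the share of cells that open it. The labels name separate animals, and p-values here cover the spread between animals and between library preparations together.

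Sono-seq rests on the way chromatin breaks. Crosslinked chromatin is sheared by sound more readily where nucleosomes are displaced, so short fragments from active promoters, CpG islands and enhancers are over-represented even without an antibody. Repeats present in many copies also gather reads in such libraries. In hippocampal neurons, learning a context sets off rapid transcription of immediate early genes such as Fos, Arc and Egr1, whose promoters are already open in resting neurons. Whether the 794 regions lie at promoters could not be checked, since no mm9 gene annotation was used here. They are called strong regions and are named by their mm9 positions as deposited.

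Total counts over the listed regions ran from 36786183 to 83233550 per library, and the strong regions held a small part of them. Their share was 0.227, 1.76, 0.965 and 1.40% for controls 1 to 4 and 1.14, 1.96, 1.78 and 2.56% for conditioned libraries 1 to 4. Most reads of every library fall in a few very high regions, and 1 of the 794 strong regions is among the 50 highest. Of the reads outside those 50, strong regions held 6.61% in control replicate 1 and 12.3% to 15.2% in the other 7 libraries. Levels below are read counts per 1000000 reads, scaled by TMM factors (CPM), which set a region against the bulk of listed regions. Control replicates 1 and 3 stand apart from the other 6 libraries in what follows, with TMM factors of 0.332 and 0.509 against 1.03 to 2.01. Across the strong regions, log2 CPM of control replicate 1 correlated with those of its 7 partners between 0.14 and 0.56 (Pearson's r). Conditioned replicate 2 correlated with its 7 partners between 0.18 and 0.29, never as high as the best pairs of control replicate 1. Pairs without either library gave 0.26 to 0.75. Regions of 1 library share its depth and are not independent replicates.

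The missing peaks belonged almost always to the same 2 libraries. Control replicate 1 alone lacked a peak at z of at least 30 in 344 strong regions, control replicates 1 and 3 together in 328, and control replicate 3 alone in 100. These 3 patterns made up 772 of the 794 regions (97.2%), against 3790 of the 4624 regions (82.0%) with 6 or 7 carriers and a mean z below 80. Control replicate 1 was a carrier in 112 strong regions and control replicate 3 in 356, while the other 6 libraries were carriers in 780 to 794. A conditioned library was missing in 16 regions, 14 times conditioned replicate 2.

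Missing carriers almost always had a listed peak, one below z 30. The median of the highest z in a region was 22.1, 90.8, 29.0 and 74.6 for controls 1 to 4. It was 80.5, 61.1, 104 and 139.7 for conditioned libraries 1 to 4. Over all listed regions it was 21.3 in control replicate 1, 20.4 in control replicate 3 and 33.9 to 84.9 in the other libraries. In the 215 regions with 8 carriers and a mean z of at least 80, it was 43.7 and 54.0 in control replicates 1 and 3. Both sets were chosen by which libraries reach z 30. The medians of control replicates 1 and 3 are thus in part fixed by that choice. In 791 of the 794 regions all 8 libraries had a listed peak of some height, and the lists reach down to z 5. That of control replicate 1 holds 900786 peaks, and the share of all listed regions with a peak in every library is not given here. Of the 682 regions without control replicate 1, 377 had a peak of z 20 to 30 there, and of the 438 without control replicate 3, 350 did. When the highest z of all 8 libraries was averaged, with 0 where no peak was listed, the median over the strong regions was 77.1, and 284 of them (35.8%) stayed at 80 or above.

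**Figure D1:**
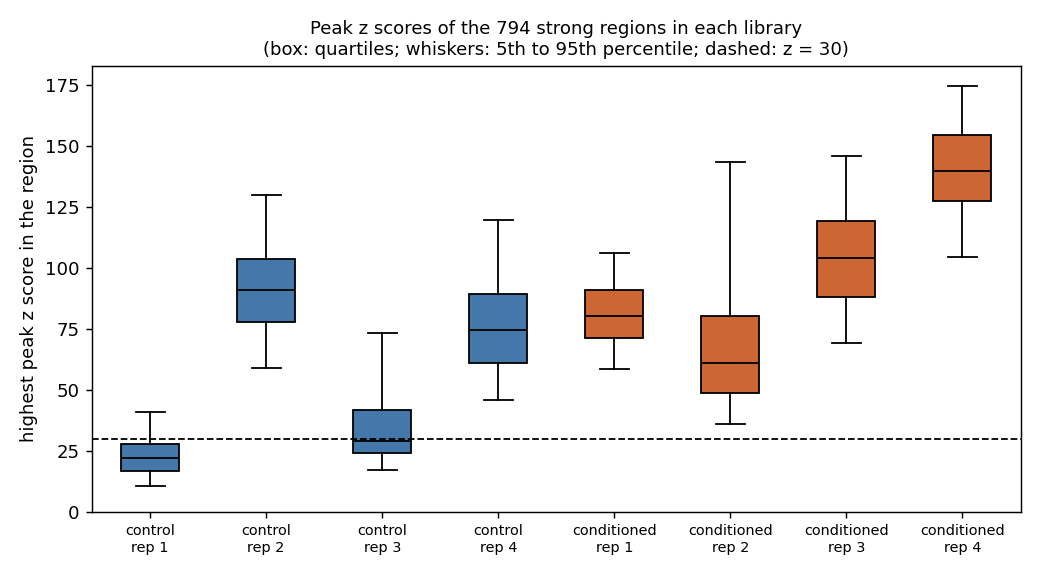
Highest peak z score in each of the 794 strong regions (vertical axis), by library; boxes give quartiles, whiskers the 5th to the 95th percentile, and the dashed line marks z 30. The medians of control replicates 1 and 3 (22.1 and 29.0) lie below the line, and those of the other 6 libraries lie between 61.1 and 140.

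The z score followed the raw count. Among all listed regions with a highest z of 28 to 32, the median raw count was 222, 246, 172 and 209 for controls 1 to 4. It was 238, 220, 253 and 233 for conditioned libraries 1 to 4. A z near 30 thus stood for a median of 172 to 253 reads, depending on the library. The median raw count of a strong region was 157, 1316, 229 and 907 for controls 1 to 4 and 1034, 688, 1548 and 2572 for conditioned libraries 1 to 4. Control replicate 1 is below its own level for z 30, and the other 6 libraries are far above theirs. Control replicate 3 is above its level in reads (229 against 172), yet its median z was 29.0. The read level for z 30 is thus only a rough guide to z in that library's strong regions. In conditioned replicate 4 the lowest count of any strong region was 616. In control replicate 1 the median count was 144 in the strong regions it did not carry and 317.5 in those it did. In control replicate 3 these medians were 160.5 and 355. Within a library, z and count of the 794 regions had a Spearman's rho of 0.75 to 0.83, a description over regions that share reads for both measures.

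After scaling, control replicate 3 came close to the other libraries and control replicate 1 did not. The median level of a strong region was 7.15, 14.3, 12.2 and 15.3 CPM for controls 1 to 4 and 12.8, 15.6, 13.4 and 15.4 CPM for conditioned libraries 1 to 4. Over all listed regions the library medians lay between 6.03 and 6.47 CPM, so a strong region had more than the typical level in 7 libraries and little more than it in control replicate 1. That library was the lowest of the 8 in 532 of the 794 regions. It lay at most at 50% of the next lowest library in 143 strong regions (18.0%), against 814 of all 11304 (7.20%). The regions were chosen by peaks of these same libraries, and the part of that choice in such values was not tested.

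The nearest groups of regions lay at other heights, and their libraries in another order. The 215 regions with 8 carriers and a mean z of at least 80 had median levels of 19.0, 22.8, 27.5 and 24.6 CPM for controls 1 to 4 and 21.5, 24.3, 22.4 and 23.4 CPM for conditioned libraries 1 to 4. Control replicate 3 was the highest library there, and control replicate 1 again the lowest. In the 4624 regions with 6 or 7 carriers and a mean z below 80, the medians lay between 6.43 CPM in control replicate 1 and 8.56 CPM in conditioned replicate 2. Both groups were cut from the same z scores, and no test was made between them. The median over the 8 libraries' mean was 14.2 CPM for a strong region, 23.1 CPM with 8 carriers and 8.52 CPM below a mean z of 80.

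**Figure D2:**
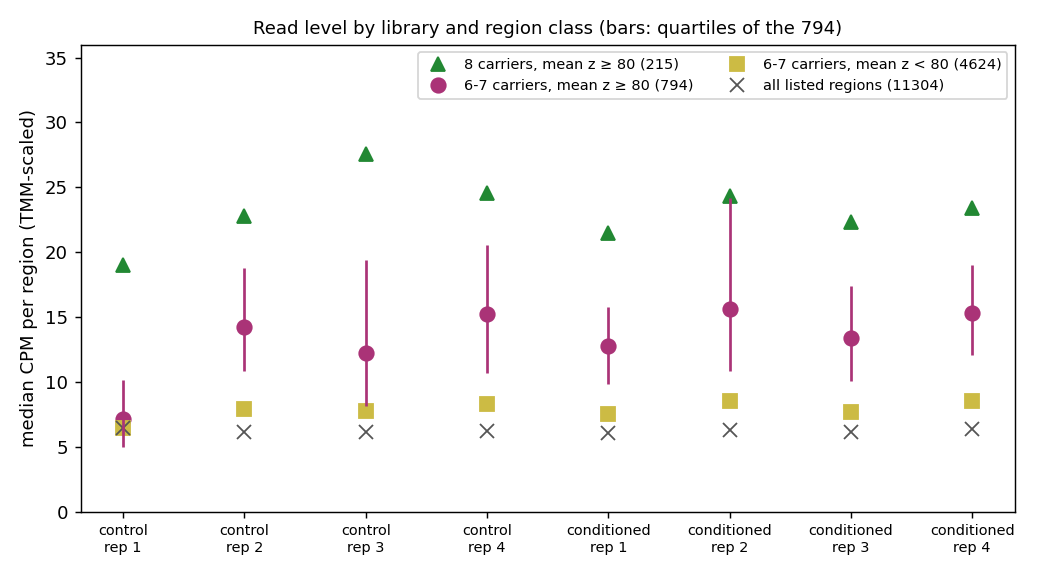
Median CPM per region (vertical axis) in each library for 4 groups of regions, with vertical bars for the quartiles of the 794 strong regions. The strong regions lie between 12.2 and 15.6 CPM in 7 libraries and at 7.15 CPM in control replicate 1.

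Strong regions were of moderate and fairly even width. Their median span was 950 bp, with quartiles of 750 and 1299 bp and extremes of 401 and 3159 bp; over all listed regions the median was 858 bp with quartiles of 600 and 1314 bp. Spans of 600 to 1500 bp were found in 615 of the 794 (77.5%), against 58.1% of all regions and 52.1% of those with 8 carriers and a mean z of at least 80. Spans under 600 bp were rarer (8.44%) than over all regions (24.9%), and so were spans over 2000 bp (3.15% against 6.10%). The narrow and the wide ends of the list are thus thinly represented among the strong regions. Wider strong regions held more reads (Spearman's rho of span and mean CPM 0.58 over the 794 regions) but fewer per kb (rho -0.68), and span had next to no relation to mean z (rho -0.0033). Over all listed regions the same rho were 0.42, -0.40 and 0.011. Reads per kb are divided by span, so their negative rho with span is in part built in. These are descriptions across regions, with no p-value.

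The extremes of width looked unlike each other. The widest strong region, on chromosome 8 at 11006780 to 11009939, had 22.6, 41.4, 84.4 and 47.4 CPM for controls 1 to 4 and 40.9, 47.5, 41.0 and 43.8 CPM for conditioned libraries 1 to 4. Conditioned libraries lay within a narrow band there, inside the range of the controls. The narrowest, on chromosome 9 at 122178685 to 122179086, is described with the highest z scores below.

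Peaks of different libraries sat at the same place. The centres of the highest peak in each carrier spanned a median of 162 bp per strong region (quartiles 100 and 261 bp), and in 761 of the 794 (95.8%) they spanned 500 bp or less, against 84.2% of all regions and 90.2% of those with 8 carriers and a mean z of at least 80. The median carrier was 21.5 bp from the middle one. That middle position lay at 53.1% of the region's length from its lower coordinate (quartiles 50.1% and 56.9%), against 53.7% over all regions (quartiles 48.4% and 58.6%). The 50 bp added to each peak's end move its centre towards the higher coordinate. The region list counts its carriers from these same peaks, and a central position was not tested. Peaks at z of at least 30 covered a median of 29.4% to 46.2% of a strong region in the 6 libraries other than control replicates 1 and 3.

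Strong regions were found on all 19 autosomes in the list. They made up 7.02% of all listed regions, and this share ran from 4.73% on chromosome 15 (23 of 486) to 9.08% on chromosome 9 (58 of 639). Chromosome 18 followed with 8.24% (29 of 352), chromosome 10 with 8.07% (48 of 595) and chromosome 16 with 8.00% (30 of 375). At the low end, chromosome 11 had 5.63% (49 of 871) and chromosome 6 had 5.80% (33 of 569). Set against the distance between the first and the last listed region, there were 0.330 strong regions per Mb over all autosomes. Chromosome 9 was again highest with 0.481 per Mb, followed by chromosome 11 with 0.412 and chromosome 2 with 0.403 per Mb, and chromosome 6 was lowest with 0.226. Chromosome 11 thus ranked high per Mb and low per listed region, as its list is the densest of all (7.33 listed regions per Mb). Chromosome 2 held the most strong regions, 72 in number. A lead of chromosome 9 was not particular to this set. Regions with 8 carriers and a mean z of at least 80 also had their largest share there, 4.69% (30 of 639). These shares were compared by size alone, with no test.

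**Figure D3:**
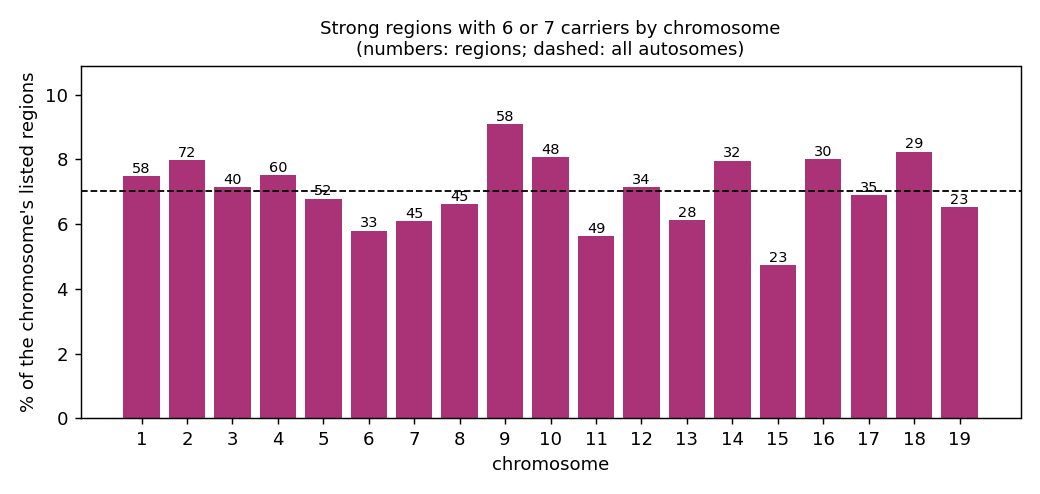
Share of each autosome's listed regions that are strong regions with 6 or 7 carriers (vertical axis, percent), with their number above each bar and a dashed line at 7.02% for all autosomes. Chromosome 9 stands highest at 9.08% and chromosome 15 lowest at 4.73%.

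Strong regions were thinly spread, at 0.330 per Mb over all autosomes. The median gap between neighbours of the set on a chromosome was 1517270 bp. Within 10 kb lay 2 pairs, and within 100 kb 44 pairs. These gaps were not set against those of regions placed at random. The closest pair, on chromosome 9 at 77955885 to 77956635 and 77960835 to 77961485, was 4200 bp apart. To the next listed region of any kind the median gap was 56550 bp, against 48480.5 bp over all regions. Another listed region lay within 2 kb in 26 cases (3.27%), against 5.77% of all regions and 15.8% of those with 8 carriers and a mean z of at least 80. The 26 close neighbours were mostly weaker, with a median mean z of 57.1 (42.3 to 81.8), and 10 of them had 4 carriers and 5 had 5.

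Mean z scores crowded near the lower limit, with 2 regions far above the rest. Of the 794 regions 581 (73.2%) had a mean z below 90, 43 had at least 100, and 2 had more than 150. The highest mean z, 653, belonged to the narrow region of chromosome 9 at 122178685 to 122179086. Its raw counts were 3740, 1042, 75968 and 16248 for controls 1 to 4 and 558, 38501, 21164 and 6365 for conditioned libraries 1 to 4. The next, with a mean z of 473, was the 437 bp region of chromosome 8 at 79958335 to 79958772. There the counts were 2485, 3195, 45282 and 5793 for controls 1 to 4 and 1224, 16113, 7596 and 1060 for conditioned libraries 1 to 4. Control replicate 3 was far the highest in both, followed by conditioned replicate 2, and the groups overlapped in both.

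The missing carriers of these 2 regions were also of another kind. On chromosome 9, control replicate 2 and conditioned replicate 1 had no listed peak at all despite 1042 and 558 reads, and on chromosome 8 conditioned replicates 1 and 4 had none despite 1224 and 1060 reads. In the set, the only other region with a library that lists no peak is that of chromosome 4 at 83170998 to 83171474, in control replicate 1. In CPM, the chromosome 9 region held 170.4, 11.3, 4056 and 273 CPM among the controls (replicates 1 to 4) and 6.89, 874, 183 and 38.0 CPM among the trained animals (replicates 1 to 4). Without the 2 regions, the share of control replicate 3's counts in strong regions was 0.636% in place of 0.965%. Neither region passed edgeR's test (log2 -2.03, SE 1.37, and -2.56, SE 1.28; adjusted p = 0.755 and 0.646).

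The other 8 of the 10 highest mean z scores, from 109 to 128, were more even than those just described. Their coefficients of variation (SD over mean of CPM in the 8 libraries) still lay between 35.9% and 80.2%. Only the lowest, of chromosome 1 at 78653989 to 78655094, was below the upper quartile of the strong regions, 54.0%. On chromosome 10 at 112365651 to 112366293 (mean z 128), the levels were 4.74, 9.89, 9.18 and 38.0 CPM among the controls (replicates 1 to 4) and 9.45, 34.7, 17.6 and 14.2 CPM among the trained animals (replicates 1 to 4). Control replicate 4 and conditioned replicate 2 were high there, and the groups overlapped. On chromosome 1 at 78653989 to 78655094 (mean z 115), they were 11.0, 26.3, 35.8 and 47.7 CPM among the controls (replicates 1 to 4) and 25.8, 25.4, 28.2 and 32.9 CPM among the trained animals (replicates 1 to 4). Conditioned libraries lie close together there, while the controls run from below to above them. In these 8 regions log2 fold changes lay between -0.53 and 0.60, the groups overlapped in all 8, and the smallest adjusted p of edgeR's quasi-likelihood test was 0.833.

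The limit of z 80 has near neighbours on either side. Just inside lay chromosome 11 at 118883929 to 118885029, chromosome 1 at 38892377 to 38893677 and chromosome 7 at 86955573 to 86956363, with mean z of 80.01, 80.05 and 80.09. Just outside lay chromosome 18 at 9448463 to 9450198, chromosome 2 at 120965693 to 120966426 and chromosome 9 at 114597635 to 114598485, with 79.999, 79.994 and 79.978. Mean levels of the 3 inside were 9.44, 17.5 and 8.70 CPM in control and 15.7, 12.6 and 9.24 CPM in conditioned libraries. For the 3 outside they were 13.5, 7.70 and 14.4 CPM in control and 14.0, 9.35 and 15.2 CPM in conditioned libraries.

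The spread between libraries was wide for most strong regions. The coefficient of variation of CPM over the 8 libraries had a median of 40.9% (quartiles 32.1% and 54.0%), against 47.7% over all listed regions, 40.1% with 8 carriers and a mean z of at least 80, and 42.2% below a mean z of 80. Within groups, the median was 45.8% over the 4 controls and 27.6% over the 4 conditioned libraries. The controls had the larger SD in 530 of the 794 regions (66.8%), against 71.2% of all regions. Without control replicate 1 the median over the controls was 33.9%. The highest library was a median of 3.98 times the lowest.

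Single libraries made up part of this spread. In 105 strong regions (13.2%; 16.2% of all regions) 1 library had at least 2 times the level of the next. It was conditioned replicate 2 in 57 of them (7.18% of the strong regions, against 3.57% of all regions), control replicate 3 in 31 and control replicate 4 in 11. Conditioned replicate 2 was the highest library in 229 strong regions, more often than any other. The 5 with the largest variation include both regions of very high z. Of the other 3, the region of chromosome 6 at 87285141 to 87285683 and that of chromosome 7 at 82992976 to 82993860 appear below with the smallest p-values. The remaining one, on chromosome 1 at 175297327 to 175297883, had 6.02, 3.08, 2.30 and 8.06 CPM among the controls (replicates 1 to 4) and 2.75, 49.3, 10.6 and 3.68 CPM among the trained animals (replicates 1 to 4). Its high value is conditioned replicate 2, and the other 7 libraries lie between 2.30 and 10.6 CPM.

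A few strong regions barely varied. On chromosome 1 at 172993639 to 172996594, a wide region of 2955 bp, the levels were 59.0, 65.1, 84.5 and 71.4 CPM among the controls (replicates 1 to 4) and 67.8, 69.6, 65.3 and 61.9 CPM among the trained animals (replicates 1 to 4), a coefficient of variation of 11.4%. All 8 libraries are near the same level there, control replicate 1 included, although control replicate 3 had a highest z of 23.3 and so was no carrier. The region of chromosome 4 at 9595572 to 9596412 had 13.5, 13.5, 17.6 and 16.9 CPM among the controls (replicates 1 to 4) and 13.2, 15.0, 15.9 and 19.4 CPM among the trained animals (replicates 1 to 4) (14.2%). The other 3 of the 5 most even regions had coefficients of 14.5% (chromosome 13, 93300216 to 93301219), 15.9% (chromosome 11, 120684781 to 120686138) and 16.1% (chromosome 5, 90794401 to 90796001). In all 5 the missing carriers were control replicate 1, control replicate 3 or both, as in 772 of all 794 strong regions (97.2%).

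The comparison of conditioned with control mice asks whether training moved these regions within 30 min. None of the 794 strong regions passed edgeR's quasi-likelihood test at an adjusted p below 0.05 (percent called over all regions 0%; smallest adjusted p = 0.605), and DESeq2's Wald test called 0 of the 775 to which it gave an adjusted p (percent called over all regions given one 0.359%, or 40 in number; smallest adjusted p = 0.0872). It gave none to the other 19, among them the regions of chromosome 9 (44607086 to 44607985) and chromosome 6 (87285141 to 87285683) described below. Before adjustment, 38 strong regions had a p below 0.05, or 4.79%, where 7.79% of all regions had such a p. Of these, 32 were higher in conditioned libraries (4.03%, against 1.76% of all regions) and 6 were lower (0.756%, against 6.03%). The groups did not overlap in 18 strong regions on the higher side (2.27%, against 1.5% of all regions) and in 0 on the lower side (against 0.902%). With region totals as the only scaling, the 72 unadjusted calls split into 70 higher (8.82%, against 9.65% of all regions) and 2 lower (0.252%, against 0.345%), and the median of all regions moved to 0.75 on the log2 scale.

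These directions moved with control replicate 1. The strong regions had a median log2 fold change of 0.19, against -0.049 over all regions, and 539 of the 794 (67.9%) were above 0. The median was 0.32 with 6 carriers and 0.12 with 7 carriers. Without control replicate 1 it was 0.015, against -0.040 over all regions, and the unadjusted calls were 29 higher (3.65%, against 3.75% of all regions) and 40 lower (5.04%, against 5.75%), near the background on both sides. With control replicates 2 and 4 as the only controls, a comparison chosen after the data were seen, it was -0.027 against 0.024 over all regions, with 18 calls higher (2.27%, against 3.34% of all regions) and 37 lower (4.66%, against 5.03%). Without conditioned replicate 2, there were 20 unadjusted calls, 16 higher (2.02%, against 0.752% of all regions) and 4 lower (0.504%, against 3.90%). Without control replicate 3 the median was 0.20, against -0.055 over all regions. In the regions with 6 or 7 carriers and a mean z below 80, all 8 libraries gave a median of 0.026. The strong regions were chosen by peaks in 6 or 7 of these same libraries, and the missing ones are mostly control replicates 1 and 3. The part of this choice in the fold changes was not tested. No count in this comparison is read as a result about the set. The median SE of a log2 fold change was 0.44.

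**Figure D4:**
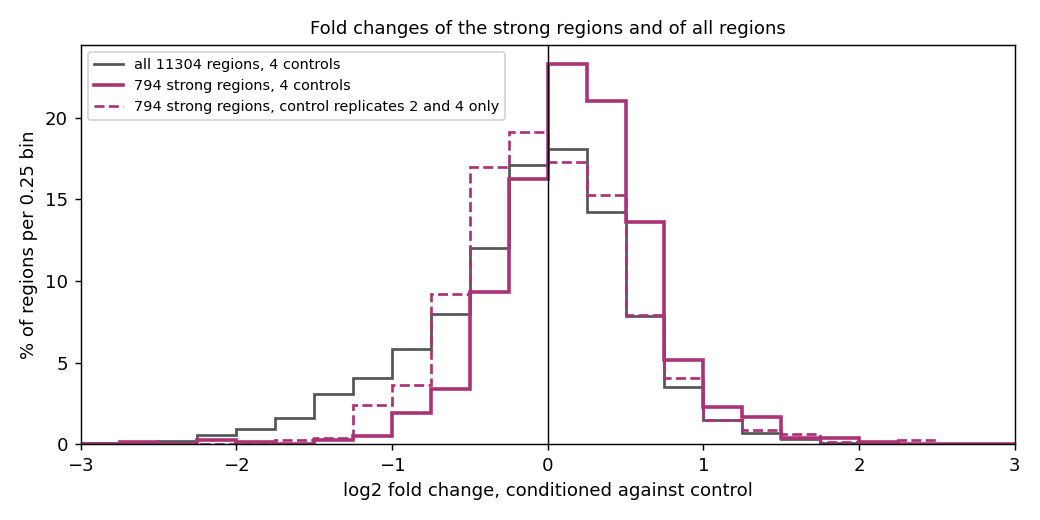
Distribution of log2 fold changes, conditioned against control (horizontal axis), as percent of regions per bin (vertical axis), for the 794 strong regions and all 11304 regions with 4 controls, and for the strong regions with control replicates 2 and 4 alone (dashed). The solid curve of the strong regions has its median at 0.19 and the dashed one at -0.027.

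The 6 strong regions with the smallest p on the higher side are given by their values, since none passed the test. On chromosome 14 (56380677 to 56381680), the levels were 8.25, 9.65, 6.19 and 8.57 CPM among the controls (replicates 1 to 4) and 18.5, 34.8, 16.0 and 15.8 CPM among the trained animals (replicates 1 to 4). All conditioned libraries are above all controls there, with conditioned replicate 2 far the highest. Levels averaged 21.3 ± 9.08 CPM after training, against 8.16 ± 1.44 CPM without it (mean ± SD over 4 mice per group), giving log2 1.38 (SE 0.39), and the edgeR adjusted p was 0.605. On chromosome 10 (80958629 to 80959267), the levels were 4.42, 7.45, 4.97 and 5.69 CPM among the controls (replicates 1 to 4) and 8.19, 32.4, 12.1 and 12.3 CPM among the trained animals (replicates 1 to 4). Again the groups do not overlap and conditioned replicate 2 is far above the other 3; the log2 fold change was 1.52 (SE 0.47), and 0.95 without that library.

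The third, on chromosome 9 (44607086 to 44607985), had 7.88, 9.27, 10.7 and 9.37 CPM among the controls (replicates 1 to 4) and 12.1, 75.9, 16.5 and 11.7 CPM among the trained animals (replicates 1 to 4). The controls form a tight group just below 3 of the conditioned libraries, and conditioned replicate 2 lies far above all of them. Its log2 fold change was 1.64 (SE 0.56), and 0.53 without conditioned replicate 2. In the regions of chromosome 6 (87285141 to 87285683) and chromosome 7 (29804132 to 29805182), conditioned replicate 2 held 83.0 and 55.2 CPM, while the other 7 libraries lay between 1.78 and 11.5 CPM in the first and between 4.19 and 14.6 CPM in the second. The groups overlapped in both, and the log2 fold changes of 2.24 and 1.77 went to 0.61 and 0.73 without that library.

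The sixth differed in its missing carriers and in its high library. On chromosome 9 (42328736 to 42329236), a region of 500 bp that control replicates 2 and 3 did not carry, the levels were 7.70, 1.45, 2.35 and 3.23 CPM among the controls (replicates 1 to 4) and 4.50, 11.7, 21.7 and 9.36 CPM among the trained animals (replicates 1 to 4). Conditioned replicate 3 is the highest, and control replicate 1 lies above conditioned replicate 1, so the groups overlap. The log2 fold change was 1.69 (SE 0.59; adjusted p = 0.605 in edgeR), 1.22 without conditioned replicate 3 and 2.33 without control replicate 1. Its raw counts were low in the controls, from 44 to 192.

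On the lower side, control replicate 3 was the highest library in 5 of the 6 strong regions with the smallest p. On chromosome 9 (77960835 to 77961485), the levels were 3.87, 18.7, 91.9 and 22.7 CPM among the controls (replicates 1 to 4) and 7.38, 6.36, 8.50 and 8.43 CPM among the trained animals (replicates 1 to 4). Control replicate 3 stands far above all others there, while control replicate 1 is below every conditioned library, so the groups overlap. Levels averaged 7.67 ± 1.01 CPM after training, against 34.3 ± 39.3 CPM without it (mean ± SD over 4 mice per group), giving log2 -2.16 (SE 0.67), with an edgeR adjusted p of 0.605; without control replicate 3 the log2 fold change was -0.99. The region of chromosome 19 (21852565 to 21853116) had 8.29, 16.3, 54.5 and 9.95 CPM among the controls (replicates 1 to 4) and 6.63, 4.70, 10.7 and 10.7 CPM among the trained animals (replicates 1 to 4). Here too control replicate 3 stands far above the others, and the log2 fold change of -1.44 (SE 0.56) went to -0.52 without it.

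The same library led on chromosome 7 (82992976 to 82993860), on chromosome 4 (45420418 to 45422018) and on chromosome 4 (8837342 to 8839024), with 63.6, 71.1 and 54.2 CPM. Their log2 fold changes were -1.92, -1.45 and -1.22, and -0.56, -0.28 and -0.26 without control replicate 3. The exception was chromosome 9 (13422435 to 13423235), which control replicate 3 and conditioned replicate 2 did not carry. It had 33.8, 14.1, 9.50 and 16.1 CPM among the controls (replicates 1 to 4) and 11.6, 4.97, 8.09 and 8.50 CPM among the trained animals (replicates 1 to 4). Control replicate 1 is the highest library there, and control replicate 3 falls inside the conditioned range. Its log2 fold change of -1.15 (SE 0.45) was -0.69 without control replicate 1. The groups overlapped in all 6 regions of the lower side.

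**Figure D5:**
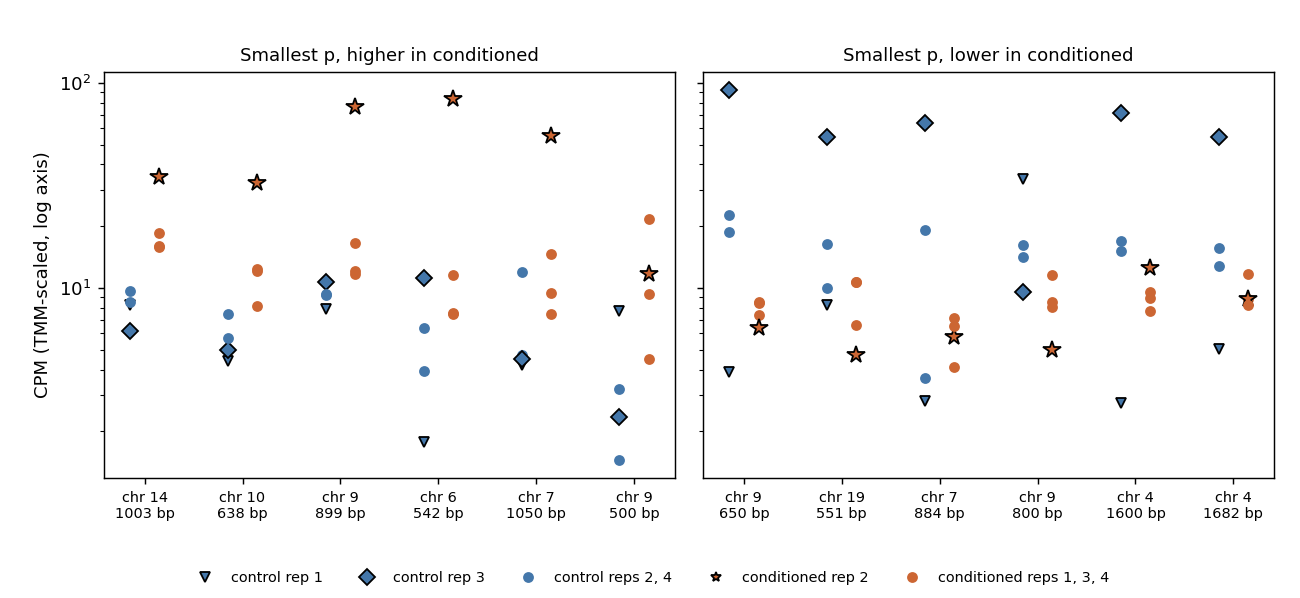
CPM on a log axis (vertical) in each of the 8 libraries for the 12 strong regions of smallest p, 6 on either side, none of which passed the test; blue symbols are controls and orange symbols conditioned libraries. Conditioned replicate 2 (star) is the top symbol in 5 of the 6 regions on the left, and control replicate 3 (diamond) in 5 of the 6 on the right.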

How the data were processed

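The data were Sono-seq libraries from 8 mice. Per the labels' protocols, tissue was fixed with paraformaldehyde, chromatin was sonicated and no immunoprecipitation was made; Bowtie2 and build mm9 are named in the submitters' processing notes, and the sources used here do not give the tools for peaks and counts. The authors deposited raw read counts per region, a region list giving each region's mean z score and its carriers (an unscaled whole number), and 8 peak lists with 1 z score per peak, called per library; the scaling of the score is not stated. No sample column was left unused (0 columns). Duplicate reads cannot be told from independent molecules, so counts carry more error than their number shows.

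Since many peaks have equal start and end, 50 bp were added to each before it was intersected with regions at 1 bp or more (bedtools 2.31.1, Python 3.11.15, pandas 2.3.3). Counts of all 11304 regions were fitted by quasi-likelihood (edgeR 4.0.16 under R 4.3.3; TMM, group as the only term, two-sided, Benjamini-Hochberg over all regions, adjusted p below 0.05); the filter (minimum count 10, total 15) removed 0 regions. The code was tested on simulated data. The SE is the fold change over the square root of F. Libraries with the same title number were not treated as paired. Regions named were the 10 highest mean z, the 6 smallest p in each direction, the 5 largest and 5 smallest coefficients of variation, the widest and narrowest, and 3 on each side of the z limit; 3 from the chromosome with the largest share repeat others. A closest pair and a region without a listed peak were named after their values were seen. The set, the rules and the lists were chosen with earlier results of these data known. No mm9 sequence or annotation was used here, and sequences and gene names are not given. Alternatives were other scalings, filters, DESeq2 1.42.0, a replicate block, each sample left out, and other z limits.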

Additional observations from a re-analysis of the deposited data

Results flagged for a closer look

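The gap of the highest or lowest of 4 libraries to its neighbour was set against the range of its group. Of 74 groups 15 were past Dixon's 5% level, where chance gives about 1 in 20 for independent, normally distributed values. The region values were CPM without a log, and their shape was not checked, so that rate need not hold here. These 15 are a description: the regions share the same 8 libraries, and 14 of the 15 come from regions named for a high z, a large variation or a small p.

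Conditioned replicate 2 stood above the other 3 conditioned libraries in 10 regions. It had 366 CPM against 6.33 to 65.7 CPM on chromosome 8 (79958335 to 79958772), and 48.2 CPM against 8.70 to 15.3 CPM on chromosome 14 (67487363 to 67488176). Values were 54.9 CPM against 13.8 to 16.4 CPM on chromosome 8 (27228980 to 27230389), and 34.8 CPM against 15.8 to 18.5 CPM on chromosome 14 (56380677 to 56381680). Further ones were 32.4 CPM against 8.19 to 12.3 CPM on chromosome 10 (80958629 to 80959267), and 75.9 CPM against 11.7 to 16.5 CPM on chromosome 9 (44607086 to 44607985). The same held for 83.0 CPM against 7.50 to 11.5 CPM on chromosome 6 (87285141 to 87285683), and for 55.2 CPM against 7.49 to 14.6 CPM on chromosome 7 (29804132 to 29805182). It was also seen with 49.3 CPM against 2.75 to 10.6 CPM on chromosome 1 (175297327 to 175297883); the last region, with 15.9 CPM against 14.9 to 15.0 CPM on chromosome 9 (114597635 to 114598485), lies just outside the z limit. That library was a carrier in 780 strong regions, against 792 to 794 for the other 3, and had the lowest total count of its group, 36857885. The part of depth in these values was not tested.

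Control replicate 3 stood above the other controls in the 2 regions of highest z, with 4056 CPM against 11.3 to 273 CPM on chromosome 9 (122178685 to 122179086), and 2418 CPM against 34.6 to 113 CPM on chromosome 8 (79958335 to 79958772). Control replicate 4 did so with 38.0 CPM against 4.74 to 9.89 CPM on chromosome 10 (112365651 to 112366293), with 35.5 CPM against 5.61 to 10.5 CPM on chromosome 10 (77440828 to 77441617), and with 12.0 CPM against 4.19 to 4.70 CPM on chromosome 7 (29804132 to 29805182).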

How the results depend on the processing

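Under every alternative, each library left out included, 0 strong regions passed the adjusted threshold. Over all regions the count of 0 went to 6 with region totals alone and to 40 with DESeq2's Wald test (adjusted p NA for 166), and stayed at 0 elsewhere; the cause was not tested. The 38 strong regions at unadjusted p below 0.05 (4.79%, against 7.79% of all regions) became 72 with region totals alone (9.07%, against 10.0%), where the median log2 fold change was 0.87 (all regions 0.75); with 1 library left out they ranged from 20 (without conditioned replicate 2; 2.52%, against 4.65%) to 69 (without control replicate 1; 8.69%, against 9.50%), and the median from 0.015 to 0.29. The median coefficient of variation was 63.4% on region totals. A mean z of at least 60 gave 3667 regions and of at least 100 gave 43. The 12 regions with the smallest p kept their sign under every alternative, 192 values in all. They were picked by p in the main fit of the same counts, so kept signs are no independent support. Running without the count filter, or with at least 50 reads in 4 libraries, left the same 11304 regions and so no test of that choice. With a replicate block on the title number, 33 strong regions (4.16%, against 5.86% of all regions) had an unadjusted p below 0.05 and the median was 0.28; libraries with the same number deviated together at r of 0.161, 0.0482, -0.063 and 0.272, control replicate 1 correlated best with another number (0.284), so the numbers were not taken as pairs. Control replicates 1 and 3 gave a median of 157 and 229 reads per strong region, which limits every comparison with them.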
